A study of Mus musculus with 8 samples.

Results

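The mitochondrial ribosome, or mitoribosome, is the particle inside mitochondria that translates the few messenger RNAs of the mitochondrial genome, which encode core subunits of the respiratory chain and of ATP synthase. It has a small subunit, which binds and decodes the messenger, and a large subunit, which joins the amino acids. All of its proteins are encoded in the nucleus, made in the cytosol and imported, so their messenger RNAs are read out together with those of other nuclear genes. In mouse, genes for large subunit proteins are named Mrpl and genes for small subunit proteins Mrps, each followed by a number.

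The mitochondrial ribosomal protein genes described here are all loci whose symbol consists of Mrpl or Mrps, a number and at most one letter. There were 76 such genes among 12193 loci with values, of which 48 were named for the large and 28 for the small subunit. All 76 passed the filter on low values, 2 or more libraries at FPKM 1 or above, which 10874 loci passed. They lie on 17 chromosomes and are all annotated as protein-coding. By their known ancestry, 46 have a counterpart in the bacterial ribosome and 27 are specific to mitochondria, Mrps18a and Mrps18b are paralogues of the bacterial S18 counterpart, and Mrps36 is now known as a subunit of the 2-oxoglutarate dehydrogenase complex. Mrps18a and Mrps30 carry small subunit names but are known to sit in the large subunit.

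The RNA came from AtT-20, a line of mouse pituitary corticotrope tumour cells producing the ACTH precursor Pomc, and the series asks how the EGF receptor and its ligand act on transcription in these cells. All groups are of this line, and each has 2 libraries: EGFR-carrying cells given water, labelled 3 h (EGFR water), EGFR-carrying cells given EGF for 3 h, EGFR-carrying cells given EGF for 18 h, and cells carrying Neo as the control, given water, labelled 3 h (Neo water). The labels give neither the promoter or species of the introduced EGFR nor whether a line is 1 clone, nor whether the 2 libraries of a group came from separate cultures, so each p-value reflects the spread among libraries alone, which may be technical. Water was labelled 3 h throughout, so at 18 h EGF and time in culture cannot be told apart, and Neo cells with EGF were not analysed here.

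Levels are in FPKM, fragments per kilobase of transcript scaled to library size, as the authors deposited them, and sequencing depth was not given in the sources used here. Egfr was 25.9 and 27.5 FPKM in EGFR water, 28.8 and 30.6 FPKM with EGF for 3 h, 31.9 and 30.3 FPKM with EGF for 18 h, and 0.227 and 0.0663 FPKM in Neo water, so the receptor gene followed the labels in every library. Of 6 corticotrope markers, 5 had values, with Pomc at 6981 to 8930 FPKM, and no gene of the lists for other pituitary lineages, fibroblasts, endothelium or blood had one. Small RNA genes took 29.1 to 39.0% of the summed FPKM, most in Neo water 1. They are part of the common FPKM sum used as a scaling further on.

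Mitochondrial ribosomal protein genes were well expressed. Their mean FPKM over the 8 libraries ran from 15.3 to 217, a 14.2-fold range, with a median of 52.3 FPKM for the large and 55.7 FPKM for the small subunit, where all genes tested had a median of 17.5 FPKM. This is a range of messenger per length of transcript, not of protein. By mean level Mrpl33 (217 FPKM) and Mrpl17 (172 FPKM) led the large subunit and Mrps21 (152 FPKM) the small subunit. Mrpl33, the counterpart of bacterial L33, ranged from 201 to 224 FPKM over the 8 libraries, and no other of the 76 genes reached its lowest value. Mrpl17 ranged from 155 to 179 FPKM and Mrpl20 from 150.0 to 165 FPKM, so their libraries overlap. In the small subunit Mrps21 ranged from 138 to 161 FPKM, Mrps17 from 135 to 156 FPKM and Mrps5 from 95.6 to 116 FPKM, and only the last of them stood apart from the others. At the low end Mrpl45, which is known to anchor the particle to the inner membrane, ranged from 13.5 to 17.1 FPKM and Mrpl37 from 17.7 to 19.9 FPKM. Mrps34 and Mrps2, at 24.1 to 26.8 and 24.7 to 29.0 FPKM, were the lowest of the small subunit and overlapped.

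**Figure D1:**
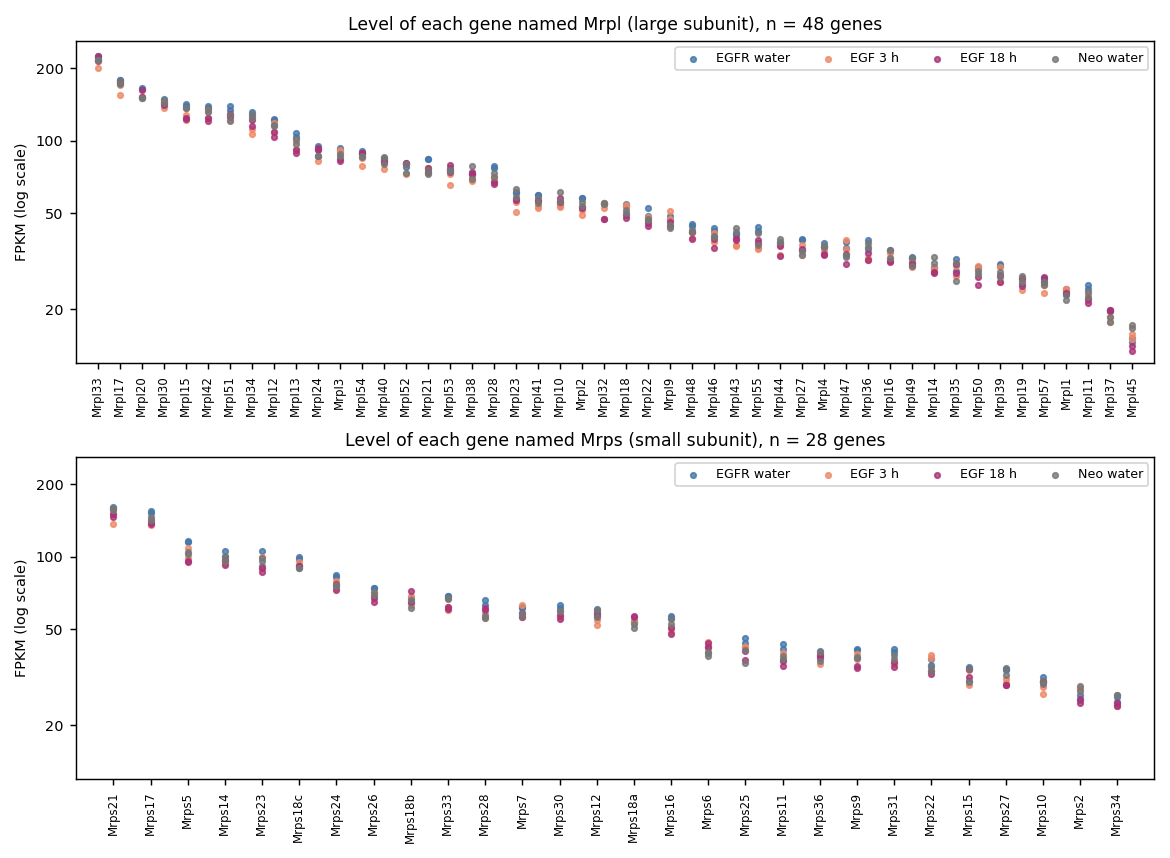
FPKM (log scale) of each gene named Mrpl (upper panel, 48 genes) and Mrps (lower panel, 28 genes), ordered by mean level, with a point for each of the 8 libraries coloured by group. Genes differ far more among themselves, from 15.3 to 217 FPKM on average, than any gene does between groups.

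Of these genes, 24 share at least 20% of their transcript with another locus, 20 through a near-identical copy and 10 through overlapping exons, and their values are uncertain in source. Of the genes named here they include Mrpl13, Mrpl21, Mrpl23, Mrpl24, Mrpl32, Mrpl43, Mrpl47, Mrps5, Mrps6, Mrps18b, Mrps18c, Mrps21, Mrps27, Mrps33, Mrps34 and Mrps36. The processed pseudogene Mrpl23-ps1, which covers 68.9% of Mrpl23, was itself listed at 50.3 to 59.7 FPKM, where Mrpl23 ranged from 50.8 to 63.0 FPKM, so reads of these loci cannot be told apart with confidence.

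Many genes of mitochondrial proteins are known to start at promoters without a TATA box that bind ETS factors of the GABP type, NRF1 and YY1. A RefSeq promoter window (GRCm38.p6, 250 bases before to 50 after the start) was matched for 68 of the 76 genes and searched on both strands for CCGGAAG (ETS), GCGCA, any base and GCGC in a row (NRF1), AAGATGGCG (YY1) and the E-box CACGTG. Each gene was given 1 window, which left 27025 of the 32851 windows at hand, and 7174 tested genes had a window. The ETS letters were in 35.3% of the windows of mitochondrial ribosomal protein genes. They were in 21.2% of those of the 7174 tested genes and in 9.12% of the 27025 windows. The NRF1 letters were in 19.1%, 12.5% and 4.78% and the YY1 letters in 11.8%, 3.86% and 1.49% of the same sets. The E-box was in 7.35%, 10.9% and 7.24%. ETS and YY1 matches overlapped in no window. A match is a description of letters and not of binding. The ETS letters were in 42.3% of the windows of small subunit genes and 31.0% of those of large subunit genes, and the NRF1 letters in 11.5% and 23.8%.

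The 5 windows below belong to genes whose values are given further on and show each kind of match, in capitals, on either strand. Mrps27 (chr13:99344536-99344835, plus strand) holds ETS and YY1 letters, as does Mrps18a (chr17:46110754-46111053, plus strand), Mrps9 (chr1:42850983-42851282, plus strand) and Mrpl12 (chr11:120484387-120484686, plus strand) hold NRF1 letters, and Mrpl36 (chr13:73330759-73331058, plus strand) holds an E-box and YY1 letters. Counted from the RefSeq start, with negative positions before it, the YY1 match begins at 15 in Mrps27 and at 12 in Mrps18a, the NRF1 match at -5 in Mrps9 and -81 in Mrpl12, and the E-box at -43 in Mrpl36. The Mrpl36 window does not include the GENCODE M21 start of this gene (chr13:73328513), which is used for the head-to-head pairs further on.
Mrps27: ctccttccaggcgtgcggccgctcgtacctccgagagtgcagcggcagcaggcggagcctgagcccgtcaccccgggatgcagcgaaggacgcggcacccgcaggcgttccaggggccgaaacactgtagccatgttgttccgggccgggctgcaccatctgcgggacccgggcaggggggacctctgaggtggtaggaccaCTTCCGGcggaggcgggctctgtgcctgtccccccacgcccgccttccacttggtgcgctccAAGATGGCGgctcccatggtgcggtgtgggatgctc
Mrps18a: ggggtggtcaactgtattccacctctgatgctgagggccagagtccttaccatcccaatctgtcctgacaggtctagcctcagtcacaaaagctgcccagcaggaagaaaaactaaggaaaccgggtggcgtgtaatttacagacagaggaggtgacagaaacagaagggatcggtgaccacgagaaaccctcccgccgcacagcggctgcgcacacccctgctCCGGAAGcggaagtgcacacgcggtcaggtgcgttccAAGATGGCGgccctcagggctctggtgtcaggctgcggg
Mrps9: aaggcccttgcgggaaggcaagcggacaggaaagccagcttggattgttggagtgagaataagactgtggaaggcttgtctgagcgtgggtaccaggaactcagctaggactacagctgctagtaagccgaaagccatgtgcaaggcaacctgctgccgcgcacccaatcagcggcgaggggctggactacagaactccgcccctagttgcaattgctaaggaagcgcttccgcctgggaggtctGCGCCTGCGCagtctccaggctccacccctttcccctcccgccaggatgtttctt
Mrpl12: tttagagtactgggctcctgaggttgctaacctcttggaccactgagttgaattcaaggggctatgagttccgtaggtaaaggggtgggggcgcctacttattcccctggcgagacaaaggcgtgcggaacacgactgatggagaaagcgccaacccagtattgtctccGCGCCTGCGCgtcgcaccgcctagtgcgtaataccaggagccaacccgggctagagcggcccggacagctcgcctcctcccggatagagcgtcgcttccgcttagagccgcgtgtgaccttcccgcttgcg
Mrpl36: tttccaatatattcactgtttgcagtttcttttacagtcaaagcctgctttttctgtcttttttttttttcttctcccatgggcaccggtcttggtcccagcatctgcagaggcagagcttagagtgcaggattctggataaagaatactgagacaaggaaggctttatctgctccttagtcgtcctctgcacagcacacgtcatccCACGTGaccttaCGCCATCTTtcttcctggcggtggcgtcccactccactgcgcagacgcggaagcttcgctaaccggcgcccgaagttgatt

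The proportion of the 2 subunits varied little between libraries. The summed FPKM of genes named for the large subunit, divided by that of the small subunit, was 1.84 and 1.85 in EGFR water, 1.84 and 1.84 with EGF for 3 h, 1.87 and 1.89 with EGF for 18 h, and 1.87 and 1.87 in Neo water. All values lay within 1.84 to 1.89, and the EGF 18 h libraries were the highest within the EGFR line. The large subunit summed to 3362 ± 3.25 FPKM in EGFR water, 3109 ± 120 FPKM with EGF for 3 h, 3139 ± 46.9 FPKM with EGF for 18 h and 3224 ± 41.7 FPKM in Neo water (SD, n = 2 each). The small subunit summed to 1819 ± 7.78, 1692 ± 65.0, 1670.3 ± 11.0 and 1725 ± 18.2 FPKM in the same groups. The EGF 3 h libraries differed from each other more than the 2 libraries of other groups did: library 1 lay below library 2 in all but 6 of the 76 genes, by a median of 0.07 on the log2 scale, where all genes tested differed by 0.03.

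**Figure D2:**
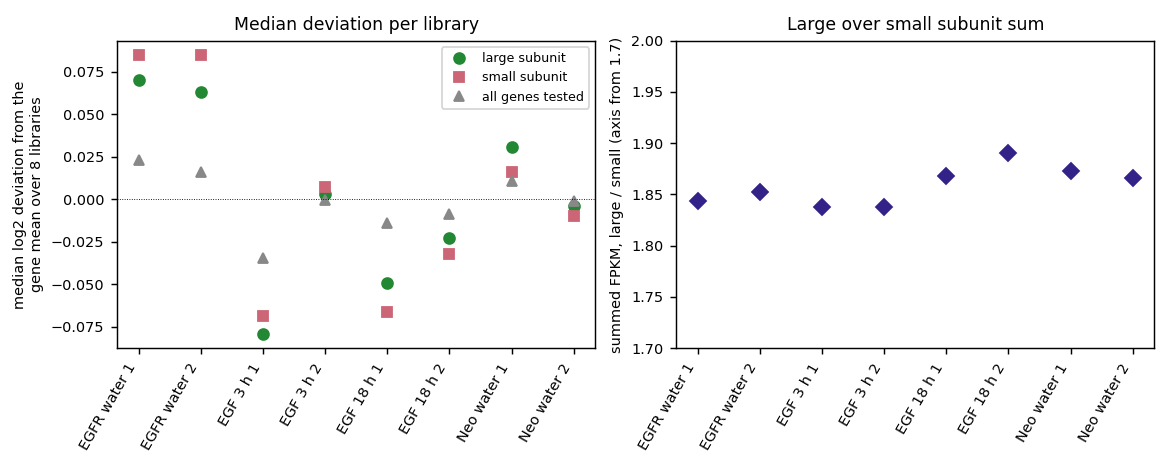
Left, the median log2 deviation from each gene's mean over the 8 libraries, for the large subunit, the small subunit and all genes tested, in each library; right, summed large over summed small subunit FPKM (axis from 1.7). Both subunits moved together from library to library and further than all genes tested, while their ratio stayed within 1.84 to 1.89; EGF 3 h 1 lies lowest and EGF 3 h 2 close to 0.

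In EGFR cells, 3 h of EGF was set against water by limma on log2(FPKM + 1), a scale that understates changes of low genes, with Benjamini-Hochberg adjustment over all genes tested. Mitochondrial ribosomal protein genes were lower by a small amount: 28 of 76 (36.8%) fell, where 19.7% of all genes tested and 22.4% of genes expressed at least as high as the lowest of the 76 fell, and none rose in limma (1 of 76 at an unadjusted p under 0.05), where 11.8% of all genes rose. Both subunits took part, with 16 of 48 large and 12 of 28 small subunit genes lower. Their median log2 fold changes were -0.11 and -0.10, against -0.04 for all genes tested. The direction of the median was the same under every scaling tried, but its size was not.

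The 8 genes with the largest decreases were Mrpl55, Mrpl34, Mrpl2, Mrpl36, Mrpl23, Mrps28, Mrpl15 and Mrps33. Mrpl55 (ENSMUSG00000036860, mm10 chromosome 11, 59202486 to 59206134, plus strand), a large subunit protein, had 35.7 and 36.0 FPKM with EGF for 3 h, against 42.2 and 43.9 FPKM in EGFR water. Both EGF libraries lay below both water libraries, with a log2 fold change of -0.26 ± 0.052 (SE, adjusted p = 0.0113). Mrpl34, the counterpart of bacterial L34, had 106 and 111 FPKM with EGF for 3 h, against 132 and 127 FPKM in EGFR water. The groups did not overlap, and the log2 fold change was -0.24 with an adjusted p of 0.00732. Mrpl2, which lines the site where peptide bonds form, had 49.2 and 51.5 FPKM with EGF for 3 h, against 58.0 and 57.8 FPKM in EGFR water. Mrpl15 had 122 and 128 FPKM with EGF for 3 h, against 140.0 and 142 FPKM in EGFR water. EGF libraries were again the lower ones in both genes, with log2 fold changes of -0.20 (adjusted p = 0.00623) and -0.17 (adjusted p = 0.00950). In the small subunit, Mrps28 had 55.6 and 58.2 FPKM with EGF for 3 h, against 63.1 and 66.3 FPKM in EGFR water. Mrps33, a protein specific to mitochondria, had 60.2 and 61.7 FPKM with EGF for 3 h, against 69.0 and 68.8 FPKM in EGFR water. Neither overlapped, and the log2 fold changes were -0.18 (adjusted p = 0.0121) and -0.17 (adjusted p = 0.00577). Mrpl36 had 32.5 and 32.0 FPKM with EGF for 3 h, against 38.8 and 35.5 FPKM in EGFR water, with its water libraries further apart than its EGF libraries, and its log2 fold change of -0.20 had an adjusted p of 0.0250. Mrpl23 had 50.8 and 55.5 FPKM with EGF for 3 h, against 61.2 and 60.7 FPKM in EGFR water with an adjusted p of 0.0271, and its source is uncertain as given above.

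Mrpl12, the stalk protein related to bacterial L7/L12, had 109 and 118 FPKM with EGF for 3 h, against 123 and 122 FPKM in EGFR water, which did not pass the test (adjusted p = 0.0977). Of the S18 family, Mrps18c, the true S18 counterpart, had 91.5 and 95.5 FPKM with EGF for 3 h, against 98.4 and 100.2 FPKM in EGFR water (adjusted p = 0.0772). Mrps18a, which is built into the large subunit, had 53.9 and 53.9 FPKM with EGF for 3 h, against 54.0 and 53.5 FPKM in EGFR water, with the log2 fold change between -0.07 and 0.08 at 95% confidence. Mrps18b had 62.9 and 68.7 FPKM with EGF for 3 h, against 64.6 and 67.5 FPKM in EGFR water (interval -0.16 to 0.15), and the groups of both these genes overlapped. By ancestry, 18 of 46 genes with a bacterial counterpart (39.1%) and 10 of 27 specific to mitochondria (37.0%) were lower, where 19.7% of all genes tested were.

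The count at 3 h changed with the library left out, with the scaling and with centring on transcript length. Without EGFR water 1 or without EGFR water 2, 4 genes (5.26%) were lower, where 7.44% and 7.63% of all genes in those fits were. Without EGF 3 h 1, 6 genes (7.89%) were lower, where 8.72% of all genes were. In these 3 fits mitochondrial ribosomal protein genes were called lower no more often than all genes. The median log2 fold change of the 76 genes was -0.11 without either water library, as with all libraries, where all genes had -0.04. Without EGF 3 h 1 it was -0.07 and without EGF 3 h 2 it was -0.15, where all genes had -0.02 and -0.06. Without EGF 3 h 2, 39 genes (51.3%) were lower, where 21.2% of all genes were. Under a common FPKM sum 1 gene (1.32%) was lower and 1 higher, where 4.05% of all genes were lower and 12.4% higher, so the share of decreases did not exceed that of all genes there. Median-ratio rescaling gave 18 lower (23.7%, where 14.3% of all genes were) and 2 higher, and a common sum over protein-coding genes 14 lower (18.4%, where 11.6% were) and 3 higher. Of the 8 genes named, 7 lost the call under the common sum (adjusted p 0.106 to 0.346) and 6 when some library was left out (0.0502 to 0.134). Mrpl55 lost it without EGFR water 2 or EGF 3 h 1, Mrpl34 without EGFR water 1, Mrpl15 without either water library, Mrps28 without EGFR water 2 or EGF 3 h 1, Mrpl36 without EGFR water 1 or either EGF 3 h library, and Mrpl23 without either water library or EGF 3 h 1. Mrpl2 and Mrps33 kept the call with any library left out.

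Mitochondrial ribosomal protein genes have short transcripts, and 52 of 76 fall in the shortest quartile of protein-coding genes tested, up to 1921 bases. Protein-coding genes of that quartile were lower at 3 h in 32.8% of cases and those of the longest quartile in 12.3%. Among the mitochondrial ribosomal protein genes of the shortest quartile, 38.5% were lower. The median deviation of short genes minus that of long genes was -0.10 and -0.04 in the EGF 3 h libraries, -0.04 and -0.01 in the EGF 18 h libraries, 0.05 and 0.06 in EGFR water and 0.03 and 0.03 in Neo water on the log2 scale, so it too differed between the EGF 3 h libraries. Centring each library by a smooth trend on transcript length was an alternative added after seeing the data, and was run on protein-coding genes alone. Without centring, a fit of protein-coding genes alone gave 35 lower at 3 h (46.1%, where 24.3% of all genes in it were). With centring, 12 genes were lower and 6 higher at 3 h (15.8% lower, where 16.9% of all genes in that fit were lower). The median was -0.02, where that of all genes in the centred fit was -0.0015. Of the 12 genes lower, 10 were among the 28. Mrpl55, Mrpl34, Mrpl2 and Mrpl15 kept their calls, with log2 fold changes of -0.15, -0.10, -0.09 and -0.17 (adjusted p = 0.0469, 0.0289, 0.0346 and 0.00166), and Mrpl36, Mrpl23, Mrps28 and Mrps33 did not (adjusted p = 0.200, 0.195, 0.183 and 0.0841). The 6 higher in that fit were Mrpl14, Mrpl9, Mrps18a, Mrps2, Mrps22 and Mrps6, with Mrps18a at 0.12 (adjusted p = 0.0201).

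**Figure D3:**
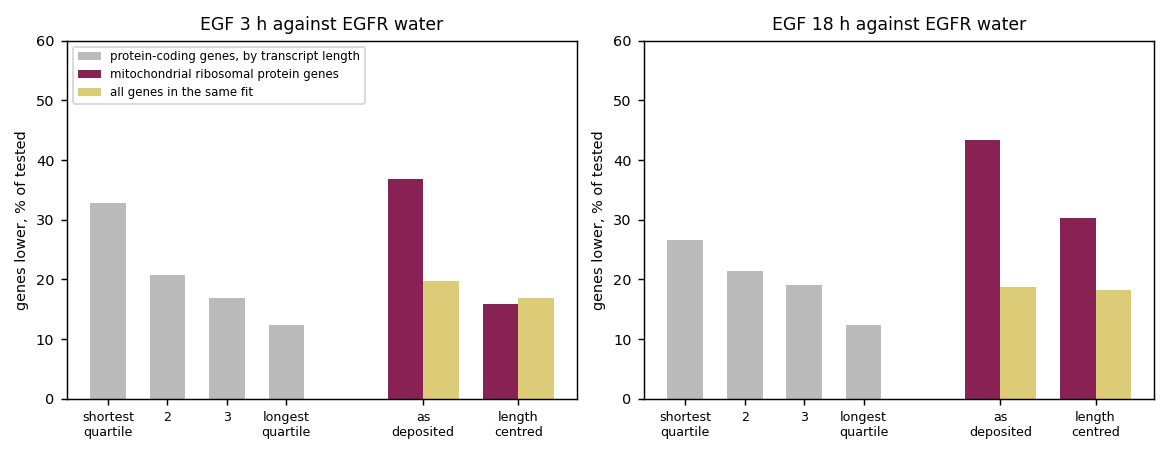
Percent of genes lower with EGF than in EGFR water, for protein-coding genes by quartile of transcript length (grey), mitochondrial ribosomal protein genes and all genes in the same fit, with values as deposited and after centring on transcript length. At 3 h the share was 36.8% as deposited and 15.8% after centring, beside 16.9% of all genes in the centred fit. At 18 h it was 43.4% and 30.3%, beside 18.2%. The centred fit held protein-coding genes alone. A fit of protein-coding genes without centring gave 46.1% at 3 h, beside 24.3%, and 48.7% at 18 h, beside 23.0%.

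EGF for 18 h was compared with the same water libraries, so both comparisons share them. At this time 33 of 76 genes (43.4%) were lower, where 18.7% of all genes tested were lower, and none was higher in limma (1 of 76 at an unadjusted p under 0.05), where 13.2% of all genes were. The 33 were 20 of 48 large and 13 of 28 small subunit genes, with median log2 fold changes of -0.11 and -0.12, against -0.03 for all genes tested. The direction of these medians did not change under any scaling tried. Genes expressed at least as high as the lowest of the 76 were lower in 22.9% of cases. By ancestry, 23 of 46 genes with a bacterial counterpart and 10 of 27 specific to mitochondria (37.0%) were lower.

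Mrps5 (ENSMUSG00000027374, mm10 chromosome 2, 127587222 to 127606829, plus strand), counterpart of a bacterial protein at the entry of the messenger, had 95.6 and 96.2 FPKM with EGF for 18 h, against 115 and 116 FPKM in EGFR water. Both EGF values lay below both water values, with a log2 fold change of -0.27 ± 0.046 (SE, adjusted p = 0.00518). Mrps9 (ENSMUSG00000060679, mm10 chromosome 1, 42851233 to 42905683, plus strand), whose bacterial counterpart reaches the decoding site and whose promoter is printed above, had 34.6 and 35.3 FPKM with EGF for 18 h, against 41.5 and 41.3 FPKM in EGFR water. The libraries of each group lay close together and the groups apart, and the log2 fold change was -0.24 (adjusted p = 0.00227). Mrps11 had 35.4 and 36.9 FPKM with EGF for 18 h, against 43.7 and 41.5 FPKM in EGFR water. Mrps27, an RNA-binding protein specific to mitochondria, had 29.3 and 29.5 FPKM with EGF for 18 h, against 34.0 and 34.4 FPKM in EGFR water. Both groups were separate in both genes, at -0.23 (adjusted p = 0.00857) and -0.21 (adjusted p = 0.00591).

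In the large subunit Mrpl28 had 66.0 and 67.3 FPKM with EGF for 18 h, against 77.4 and 78.6 FPKM in EGFR water, with a log2 fold change of -0.22 ± 0.035 (SE, adjusted p = 0.00335). Mrpl13 had 89.2 and 91.2 FPKM with EGF for 18 h, against 103 and 107 FPKM in EGFR water (log2 fold change -0.22, adjusted p = 0.00854), and 27.0% of its transcript is shared with its neighbour Mtbp. Mrpl32, whose protein is cut on import by a membrane protease before it joins the large subunit, had 47.5 and 47.5 FPKM with EGF for 18 h, against 55.4 and 54.6 FPKM in EGFR water. Its EGF libraries were all but equal, with a log2 fold change of -0.21 (adjusted p = 0.00394). Mrpl12, which was not called at 3 h, had 104 and 109 FPKM with EGF for 18 h, against 123 and 122 FPKM in EGFR water, a log2 fold change of -0.20 (adjusted p = 0.0119). Mrps18c had 91.4 and 91.7 FPKM with EGF for 18 h, against 98.4 and 100.2 FPKM in EGFR water (adjusted p = 0.0304) and was lower. Mrps18a had 56.5 and 56.9 FPKM with EGF for 18 h, against 54.0 and 53.5 FPKM in EGFR water, so its EGF libraries were the higher ones, but the difference did not pass the test (adjusted p = 0.107, log2 fold change 95% interval 0.00 to 0.15). It passed as higher after median-ratio rescaling, quantile normalization, a common sum over protein-coding genes or centring on length (adjusted p 0.00521 to 0.0347). Mrps18b, at 72.0 and 65.2 FPKM with EGF for 18 h, against 64.6 and 67.5 FPKM in EGFR water, did not differ beyond its spread (interval -0.10 to 0.21).

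**Figure D4:**
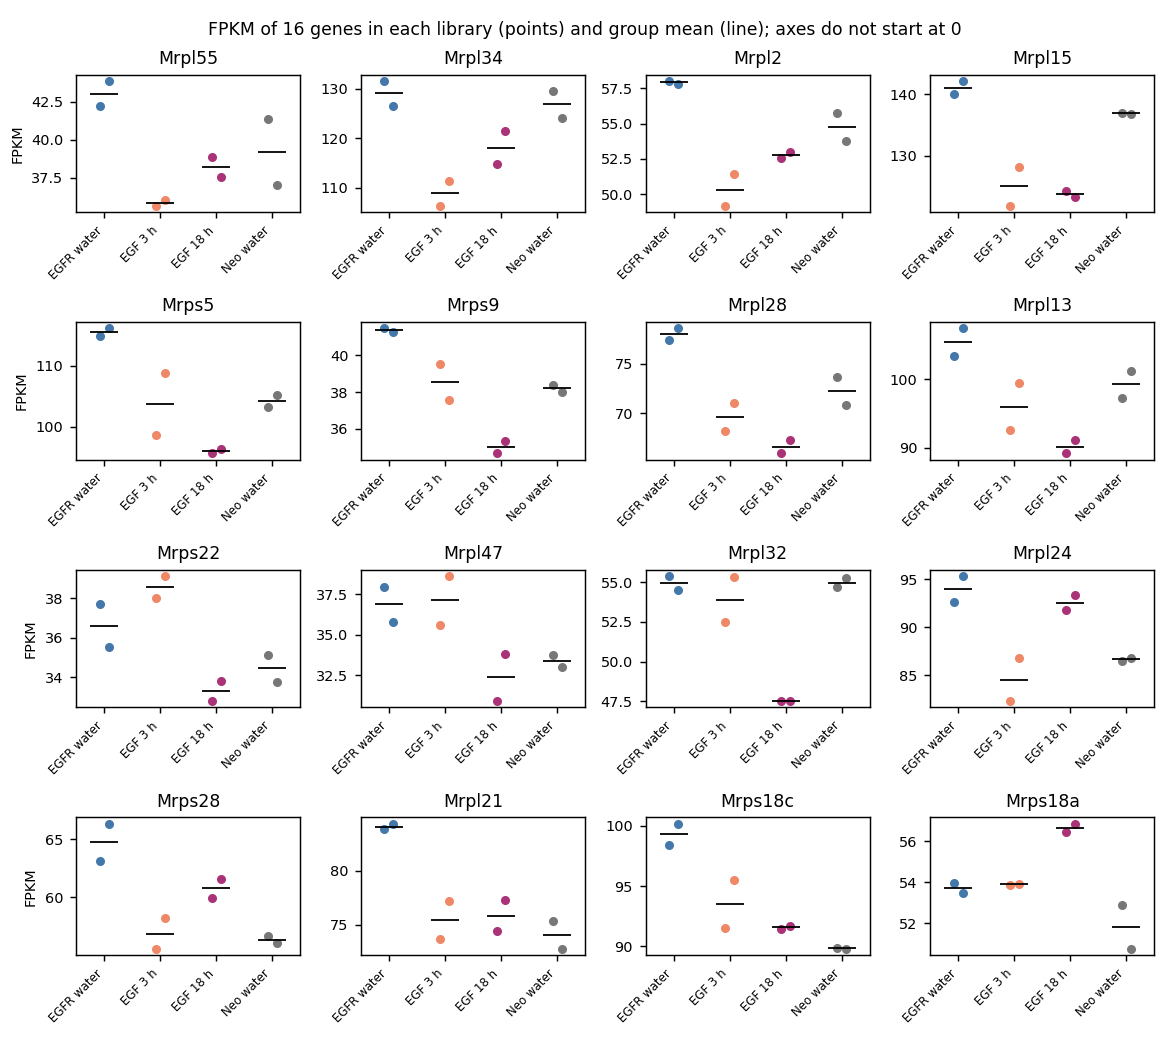
FPKM of 16 mitochondrial ribosomal protein genes in each library (points) with the group mean (line), in the order EGFR water, EGF 3 h, EGF 18 h and Neo water; axes do not start at 0. Mrps5, Mrps9, Mrpl28 and Mrpl13 are lowest with EGF for 18 h, Mrps22 and Mrpl32 are near or above water level at 3 h and lower at 18 h, and Mrps18a is highest with EGF for 18 h.

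Without EGF 18 h 1, 8 genes (10.5%) were lower, where 8.94% of all genes in that fit were. Without EGFR water 1 there were 11 (14.5%, where 8.53% of all genes were) and without EGFR water 2 there were 13 (17.1%, where 9.67% were). Under a common FPKM sum 2 genes (2.63%) were lower, where 6.49% of all genes were. Median-ratio rescaling gave 26 lower (34.2%, where 14.9% were) and 1 higher, and a common sum over protein-coding genes 23 lower (30.3%, where 12.6% were) and 1 higher. Of the 8 genes named, 6 lost the call under the common sum (adjusted p 0.0569 to 0.137), all but Mrps9 and Mrpl28. With a library left out, Mrps11 lost it without EGFR water 1 or EGF 18 h 1, Mrpl13 without EGFR water 2 or EGF 18 h 1, and Mrpl12 without either water library or EGF 18 h 1 (adjusted p 0.0543 to 0.0792). The call of Mrps18c was lost without either water library or either EGF 18 h library (adjusted p 0.103 to 0.162), under a common sum over all or over protein-coding genes (0.411 and 0.0678) and after centring on length (0.377). After centring on transcript length, 23 genes were lower and 5 higher (30.3% lower, where 18.2% of all genes in that fit were lower), 22 of the 23 were among the 33, and the median was -0.06. All 8 named genes kept their calls in that fit, with Mrps5 at -0.26 (adjusted p = 0.000789) and Mrps9 at -0.17 (adjusted p = 0.00787). The 5 higher were Mrpl33, Mrpl52, Mrpl54, Mrps18a and Mrps6. Among protein-coding genes of the shortest quartile 26.6% were lower at 18 h, and among mitochondrial ribosomal protein genes in it 40.4% were.

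The direct test between both times of EGF, 18 h against 3 h, found 9 genes lower and 1 higher of 76, which is 11.8% and 1.32%, where 16.0% of all genes tested were lower and 17.7% higher. The median log2 fold change was close to 0, at -0.0046, with a range of -0.21 to 0.15. Mrps22, a small subunit protein specific to mitochondria, had 32.8 and 33.8 FPKM with EGF for 18 h, against 38.0 and 39.1 FPKM with EGF for 3 h. Its EGFR water libraries were at 37.7 and 35.5 FPKM, between the times, and the difference between times was -0.21 ± 0.041 (SE, adjusted p = 0.00902). Mrpl32 had 47.5 and 47.5 FPKM with EGF for 18 h, against 52.5 and 55.3 FPKM with EGF for 3 h, close to its water level at 3 h and below it at 18 h (log2 fold change -0.18, adjusted p = 0.00783). Mrpl47, the counterpart of bacterial L29 near the exit of the peptide tunnel, had 30.9 and 33.8 FPKM with EGF for 18 h, against 35.6 and 38.6 FPKM with EGF for 3 h (log2 fold change -0.19, adjusted p = 0.0372). Groups did not overlap in these genes. Mrpl50 had 25.1 and 27.2 FPKM with EGF for 18 h, against 30.2 and 29.3 FPKM with EGF for 3 h (log2 fold change -0.18, adjusted p = 0.0164). Mrps2 had 25.7 and 24.7 FPKM with EGF for 18 h, against 28.2 and 28.6 FPKM with EGF for 3 h (log2 fold change -0.17, adjusted p = 0.0165). Mrpl45, the membrane anchor, had 14.1 and 13.5 FPKM with EGF for 18 h, against 15.0 and 15.8 FPKM with EGF for 3 h (log2 fold change -0.15, adjusted p = 0.0279). These were small differences in genes of low to middle level, and each had its 18 h libraries below its 3 h libraries. Mrpl18 had 47.6 and 49.3 FPKM with EGF for 18 h, against 53.6 and 54.0 FPKM with EGF for 3 h (log2 fold change -0.15, adjusted p = 0.0132). Mrps9 had 34.6 and 35.3 FPKM with EGF for 18 h, against 39.5 and 37.6 FPKM with EGF for 3 h (log2 fold change -0.14, adjusted p = 0.0212). The ninth, Mrpl3, was named after its values were seen and had 82.8 and 84.4 FPKM with EGF for 18 h, against 89.6 and 91.9 FPKM with EGF for 3 h (log2 fold change -0.12, adjusted p = 0.0265). Mrpl24, the only gene higher, had 91.8 and 93.3 FPKM with EGF for 18 h, against 82.3 and 86.8 FPKM with EGF for 3 h (log2 fold change 0.13, adjusted p = 0.0285), and shares 26.3% of its exon bases with Rrnad1. Mrps18a, Mrps18b, Mrps18c and Mrpl12 did not pass (adjusted p 0.121, 0.527, 0.511 and 0.132).

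The count of 9 was 5 without EGF 3 h 2, 2 without EGF 18 h 1 and 5 without EGF 18 h 2. Only Mrpl32 of the 9 named genes kept its call with any library left out; the other 8 lost it in at least 1 such fit (adjusted p 0.0501 to 0.190), and Mrpl24 was not called without either water library, EGF 3 h 1 or either EGF 18 h library. Mrps22 lost it only without EGF 18 h 1 (adjusted p = 0.0586). Mrpl50 and Mrps9 lost it without EGF 3 h 1, Mrpl47 and Mrpl45 without EGF 3 h 2, Mrps2 without either EGF 3 h library, and these 5 or Mrpl18 without at least 1 EGF 18 h library; Mrpl47 also lost it without either Neo library. Centring on length gave 17 lower and 4 higher, with all 10 genes of the first count among them. These were 22.4% and 5.26%, where 20.5% and 22.3% of all genes in that fit were lower and higher. Quantile normalization gave 10 higher and 11 lower (13.2% and 14.5%, where 17.3% and 18.5% of all genes were). A common FPKM sum gave 6 lower (7.89%, where 12.2% were) with none higher, where 7.94% of all genes were higher.

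**Figure D5:**
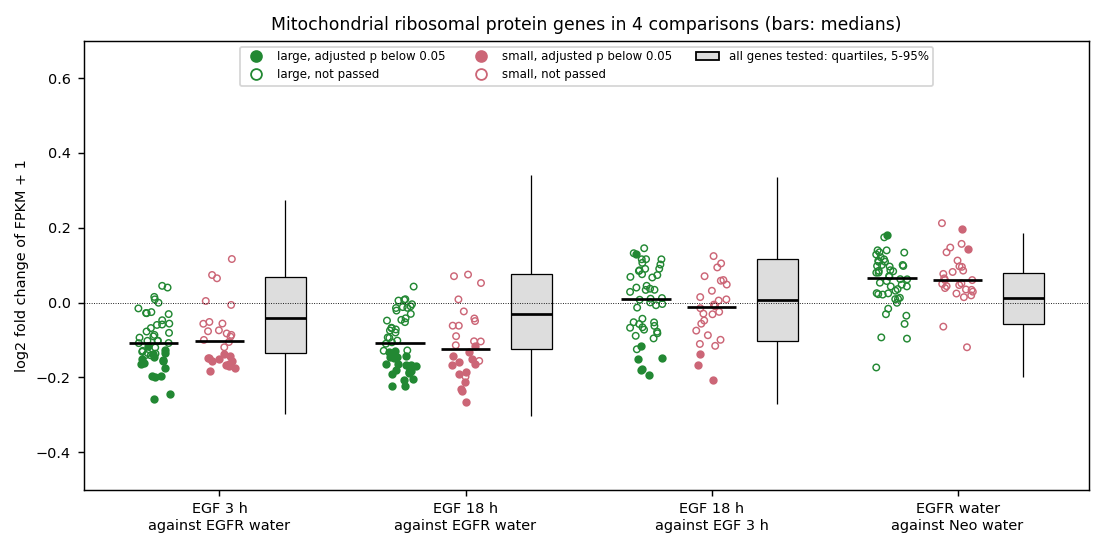
Log2 fold change of FPKM + 1 of each mitochondrial ribosomal protein gene in the 4 comparisons, filled where the adjusted p was below 0.05, with bars at the medians of each subunit; boxes show the quartiles of all genes tested and whiskers their 5 to 95% range. Large and small subunit medians lie side by side, near -0.11 for both EGF times against EGFR water, near 0 between the times and near 0.06 for EGFR water against Neo water. Under a common FPKM sum the medians stay below 0 for both EGF times but lie closer to it at 3 h. For the 76 genes together they were -0.03 at 3 h, where all genes had 0.03, and -0.08 at 18 h, where all genes had 0.0010.

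EGFR water was compared with Neo water to ask what the receptor line differs in without added EGF. Few mitochondrial ribosomal protein genes passed the test, but most lay on the higher side: 66 of 76 had a log2 fold change above 0, and 22 were higher at an unadjusted p under 0.05. The shares of all genes tested by these measures are not given here, so neither count is set against a background. After adjustment 3 of 76 (3.95%) were higher, where 3.11% of all genes tested were higher, and none was lower in limma (3 of 76 at an unadjusted p under 0.05), where 2.9% of all genes were lower. The median log2 fold change was 0.06, against 0.01 for all genes tested, with 0.07 for the large and 0.06 for the small subunit. Protein-coding genes of the shortest quartile of transcript length, which holds 52 of the 76, had a median of 0.03, and those 52 had 0.05. Mrps28, the counterpart of part of bacterial S1, had 63.1 and 66.3 FPKM in EGFR water, against 56.7 and 56.0 FPKM in Neo water. Both EGFR libraries were higher, by 0.20 ± 0.038 on the log2 scale (SE, adjusted p = 0.0322). Mrpl21 had 83.9 and 84.4 FPKM in EGFR water, against 75.3 and 72.8 FPKM in Neo water (log2 fold change 0.18, adjusted p = 0.0384). Mrps18c had 98.4 and 100.2 FPKM in EGFR water, against 89.8 and 89.8 FPKM in Neo water (log2 fold change 0.14, adjusted p = 0.0461). No group of these 3 genes overlapped, but each call was lost without either Neo library, either EGFR water library or either EGF 18 h library (adjusted p 0.0584 to 0.231), and all were lost with only the 2 groups fitted. Without either EGF 3 h library, 5 genes were higher. Mrps18a, Mrps18b and Mrpl12 did not pass (adjusted p 0.343, 0.674 and 0.276), with log2 fold changes of 0.05, 0.05 and 0.08. Common-sum scaling also gave 3 higher (3.95%, where 2.84% of all genes were), but Mrps18c was not among them (adjusted p = 0.0688). The median there was 0.14, where all genes had 0.09. Centring on length gave 4 higher and 2 lower (5.26% and 2.63%, where 5.70% and 6.51% of all genes in that fit were).

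Other genes of mitochondrial translation were counted from lists drawn up with earlier results of these data known. The counts are to be read against the shares over all genes tested, 19.7% lower and 11.8% higher at 3 h, 18.7% lower and 13.2% higher at 18 h, and 16.0% lower and 17.7% higher at 18 h against 3 h. Of 6 tested subunits outside the naming rule, 1 was lower at 3 h (16.7%) and 2 at 18 h (33.3%). Dap3, a GTP-binding small subunit protein, had 116 and 125 FPKM with EGF for 3 h, against 135 and 131 FPKM in EGFR water (log2 fold change -0.14, adjusted p = 0.0354). At 18 h Chchd1 had 103 and 113 FPKM with EGF for 18 h, against 122 and 121 FPKM in EGFR water (log2 fold change -0.17, adjusted p = 0.0442) and Ptcd3 had 38.8 and 39.0 FPKM with EGF for 18 h, against 43.0 and 42.1 FPKM in EGFR water (log2 fold change -0.13, adjusted p = 0.0182), both small subunit proteins. In these genes both EGF libraries lay below both water libraries, but none of the 6 was called under a common FPKM sum.

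Of 24 tested genes for assembly of the mitoribosome and modification of its RNA, 10 were lower (41.7%) and 1 higher (4.17%) at 3 h and 6 were lower at 18 h (25%, near the 18.7% of all genes). At 3 h Trub2, a pseudouridine synthase, had 10.3 and 11.4 FPKM with EGF for 3 h, against 13.5 and 14.2 FPKM in EGFR water (log2 fold change -0.33, adjusted p = 0.00499). Tfb1m, the methyltransferase of the small ribosomal RNA, had 6.03 and 5.97 FPKM with EGF for 3 h, against 7.96 and 7.56 FPKM in EGFR water (log2 fold change -0.32, adjusted p = 0.00259), and was also lower at 18 h (log2 fold change -0.21, adjusted p = 0.0108). Ngrn, which binds the large ribosomal RNA, had 23.0 and 24.2 FPKM with EGF for 3 h, against 30.1 and 29.7 FPKM in EGFR water (log2 fold change -0.33, adjusted p = 0.00133). C1qbp, a matrix protein needed for translation, was the gene higher at 3 h, with 38.3 and 40.1 FPKM with EGF for 3 h, against 36.6 and 33.9 FPKM in EGFR water (log2 fold change 0.15, adjusted p = 0.0378). At 18 h Gtpbp10, a GTPase of large subunit assembly, and Fastkd2, which binds the large ribosomal RNA, were lower (log2 fold change -0.24, adjusted p = 0.00323; log2 fold change -0.22, adjusted p = 0.0429). Between the times 4 of the 24 were higher and 4 lower at 18 h than at 3 h (16.7% each, near the shares of all genes), led by Mtg2 (log2 fold change 0.25, adjusted p = 0.00345) and Fastkd2 (log2 fold change -0.35, adjusted p = 0.00852). In EGFR water against Neo water Noa1 and C1qbp were lower (log2 fold change -0.27, adjusted p = 0.0428; log2 fold change -0.25, adjusted p = 0.0237).

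Of 13 tested translation factors, 4 were lower at 3 h (30.8%) and 5 at 18 h (38.5%). Taco1, an activator of translation of a cytochrome oxidase messenger, had 18.6 and 17.7 FPKM with EGF for 3 h, against 22.0 and 21.7 FPKM in EGFR water (log2 fold change -0.25, adjusted p = 0.00326). At 18 h the elongation factors Gfm1 and Tsfm were lower, Gfm1 with 63.5 and 64.7 FPKM with EGF for 18 h, against 73.7 and 71.4 FPKM in EGFR water (log2 fold change -0.18, adjusted p = 0.0119) and Tsfm with 47.6 and 47.8 FPKM with EGF for 18 h, against 53.4 and 54.4 FPKM in EGFR water (log2 fold change -0.17, adjusted p = 0.00396). Tsfm was also higher in EGFR water than in Neo water (log2 fold change 0.16, adjusted p = 0.0264). Of 19 tested genes for mitochondrial aminoacyl-tRNA synthesis, 5 were lower at 3 h (26.3%) and 2 at 18 h (10.5%). Ears2, the glutamyl-tRNA synthetase, was lower at 3 h (log2 fold change -0.26, adjusted p = 0.00936) and higher at 18 h than at 3 h (log2 fold change 0.29, adjusted p = 0.00492).

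Of 12 tested genes for transcription of the mitochondrial genome and its nuclear regulators, 2 rose and 2 fell at 3 h (16.7% each, near the shares of all genes) and 4 fell at 18 h (33.3%). Gabpb1, a subunit of the ETS factor GABP, had 14.3 and 14.4 FPKM with EGF for 3 h, against 11.7 and 11.6 FPKM in EGFR water (log2 fold change 0.28, adjusted p = 0.00535). Nrf1 had 30.2 and 28.4 FPKM with EGF for 3 h, against 24.8 and 25.3 FPKM in EGFR water (log2 fold change 0.22, adjusted p = 0.0103). EGF libraries were the higher ones in both. At 18 h they stood at 11.2 and 12.1 FPKM and 24.9 and 25.9 FPKM, lower than at 3 h (log2 fold change -0.28, adjusted p = 0.00457; log2 fold change -0.20, adjusted p = 0.0127). Gabpa, the DNA-binding subunit of GABP, had 23.3 and 23.4 FPKM with EGF for 18 h, against 27.3 and 25.2 FPKM in EGFR water (log2 fold change -0.16, adjusted p = 0.0381). Tfam, which packs mitochondrial DNA and acts in its transcription, had 77.9 and 82.6 FPKM with EGF for 18 h, against 93.4 and 87.7 FPKM in EGFR water (log2 fold change -0.17, adjusted p = 0.0495). Under a common FPKM sum 3 of the 12 were higher and none lower at 3 h, and none was called at 18 h. For the assembly genes it left 5 lower and 2 higher at 3 h and 1 lower at 18 h, for the translation factors none at either time, and for the tRNA synthetases 1 lower at each time. Genes of the mitochondrial genome itself were not analysed here. Of the genes that the naming rule picks from these lists and those below and that were called at 3 h, 12 of 21 lost the call with some library left out, as did 14 of 18 at 18 h, 16 of 21 between the times and 5 of 5 between the lines.

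Large families of similar kind gave a comparison of counts. Of 73 cytosolic ribosomal proteins, 19 were lower at 3 h (26%, where 19.7% of all genes tested were) and 2 at 18 h (2.74%, where 18.7% were), and 15 were higher at 18 h than at 3 h (20.5%, where 17.7% were). The 19 became 1 without either water library, 3 without EGF 3 h 1, 11 without either EGF 18 h library and 50 without EGF 3 h 2. The 15 became 9 without either water library, 4 without EGF 3 h 1 or EGF 18 h 1, 0 without EGF 18 h 2 and 37 without EGF 3 h 2. Their median log2 fold changes were -0.12 at 3 h and -0.02 at 18 h, where those of mitochondrial ribosomal protein genes were -0.11 and -0.11. The 18 h count of the cytosolic proteins turned to 11 higher after quantile normalization and to 30 higher and 1 lower after centring on length, and a common FPKM sum left none of them called in any of the 3 comparisons. Rps14 had 706 and 766 FPKM with EGF for 3 h, against 893 and 899.6 FPKM in EGFR water (log2 fold change -0.28, adjusted p = 0.00483) and 859 and 853 FPKM at 18 h, above its 3 h libraries (log2 fold change 0.22, adjusted p = 0.0114). Nuclear subunits of respiratory complex I were taken by name alone, as Nduf, then a, b, c, s or v, then a number. Of these 36 genes, 17 were lower at 3 h (47.2%) and 12 at 18 h (33.3%), with medians of -0.13 and -0.10. At 3 h there were 2 without EGFR water 1, 4 without EGFR water 2 or EGF 3 h 1 and 28 without EGF 3 h 2. At 18 h there was 1 without EGFR water 1 or EGF 18 h 1, 4 without EGFR water 2 and 7 without EGF 18 h 2. Ndufa11 had 23.1 and 24.9 FPKM with EGF for 3 h, against 29.0 and 28.9 FPKM in EGFR water (log2 fold change -0.26, adjusted p = 0.00802). Ndufb4 had 78.6 and 80.1 FPKM with EGF for 18 h, against 95.4 and 91.1 FPKM in EGFR water (log2 fold change -0.23, adjusted p = 0.00352). Under a common FPKM sum none of these subunits was called at 3 h and 1 was lower at 18 h. Whether the families differ was not tested.

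Some genes for mitochondrial ribosomal proteins start head to head with another gene, the starts lying within 1000 bases of each other on opposite strands. This held for 33 of them, of which 26 had a neighbour that was tested. Of the 24 neighbours that are not themselves mitochondrial ribosomal protein genes, 7 were lower (29.2%) and 2 higher (8.33%) at 3 h and 6 lower at 18 h (25%), where 19.7%, 11.8% and 18.7% of all genes tested were. At 3 h both genes of a pair were lower in Mrpl51 with Ncapd2, a condensin subunit, and in Mrpl43 with Twnk, the mitochondrial DNA helicase. Mrpl51 had 122 and 127 FPKM with EGF for 3 h, against 135 and 139 FPKM in EGFR water, and Ncapd2 had 47.8 and 48.3 FPKM with EGF for 3 h, against 56.7 and 55.8 FPKM in EGFR water. Mrpl43 had 36.5 and 36.9 FPKM with EGF for 3 h, against 41.0 and 40.9 FPKM in EGFR water, and Twnk had 11.0 and 11.0 FPKM with EGF for 3 h, against 12.7 and 12.7 FPKM in EGFR water, but 33.4% of the transcript of Mrpl43 overlaps exons of Twnk. Mrpl48 was lower and its neighbour Rab6a higher, with 39.5 and 41.8 FPKM with EGF for 3 h, against 44.3 and 45.4 FPKM in EGFR water for Mrpl48 and 65.5 and 59.5 FPKM with EGF for 3 h, against 54.2 and 53.8 FPKM in EGFR water, for Rab6a. At 18 h Mrpl13 and Mtbp were both lower, but they share transcript sequence. Of the 8 closest pairs, the neighbours Apba3 of Mrpl54, Ndufs6 of Mrpl36, Helq of Mrps18c, Eme2 of Mrps34, Ppp1r10 of Mrps18b and Mitd1 of Mrpl30 were called at neither time. The pair of Mrpl36 and Ndufs6 rests on the GENCODE M21 start of Mrpl36, which lies outside the RefSeq window printed above. Ska3, beside Mrpl57, was lower at 18 h (log2 fold change -0.27, adjusted p = 0.0137), and Fau, beside Mrpl49, at both times (log2 fold change -0.12, adjusted p = 0.0445 at 3 h and 0.0485 at 18 h).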

How the data were processed

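The authors deposited FPKM per gene locus (12193 loci) for each of 8 RNA-seq libraries, per the file headers. The submitters' processing notes list mm10, Trimmomatic 0.22, HTSeq 0.5.4, TopHat2 2.0.8 and DESeq. The program behind the FPKM values, the strand setting and sequencing depth were not given in the sources used here. Values in FPKM are relative to the library, so a change in abundant transcripts moves every other value. No counts were at hand, so no count model was run.

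From these values, limma 3.58.1 (R 4.3.3; variance trend) was run on log2(FPKM + 1) over the 10874 loci that reached FPKM 1 in 2 or more libraries. The 4 groups shared 1 fit, with 4 residual and 3.29 prior degrees of freedom. P-values were adjusted by Benjamini-Hochberg per comparison (threshold 0.05), and intervals are at 95%. The fit was tested on simulated data in which each gene varied independently. These data held no shift shared across a library or linked to transcript length, so the test does not cover such shifts. The genes, lists and tests were chosen with earlier results of these data known. Per comparison, the text names up to 8 called genes per direction by size of change (groups not overlapping, mean FPKM 5 or more), always Mrps18a, Mrps18b, Mrps18c and Mrpl12, and up to 3 called genes per direction of each other list. By level it names the 3 highest and 2 lowest of each subunit, and it names the 8 closest head-to-head pairs. One gene that this rule picks from a list is not reported here. Gene starts and ends matched GENCODE M21 in 61 of 76 genes. Copies (95% identity or more over 200 bases or more) were sought with minimap2 2.31 in M21 transcripts. Tables and plots used Python 3.11.15, pandas 2.3.3, NumPy 2.4.6 and matplotlib 3.10.9.

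Other settings were a pseudocount of 0.1, a different FPKM minimum (none or 5), 4 rescalings (median-ratio, common FPKM sum, protein-coding sum, quantile), fits of protein-coding genes or of 2 groups alone, no variance trend, a replicate block, subunits by known place, and leaving out each library. Centring on transcript length was added after seeing the data and was run on protein-coding genes alone.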

Additional observations from a re-analysis of the deposited data

Results flagged for a closer look

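The direct test of EGF at 18 h against 3 h passed for 9 named mitochondrial ribosomal protein genes and for Mrpl3, so their difference from the same water libraries was not the same at both times. At 18 h, EGF and time in culture cannot be told apart. Of the 76 genes 11.8% were lower and 1.32% higher, where 16.0% and 17.7% of all genes tested were, and 8 of the 9 lost the call with some library left out. Mrpl24 was higher at 18 h than at 3 h by 0.13 on the log2 scale. The others were lower, with log2 fold changes of -0.21 for Mrps22, -0.19 for Mrpl47, -0.18 for Mrpl50, -0.18 for Mrpl32, -0.17 for Mrps2, -0.15 for Mrpl45, -0.15 for Mrpl18 and -0.14 for Mrps9. Of the 8 lower, Mrps22, Mrpl47, Mrps2 and Mrpl45 had log2 fold changes above 0 at 3 h against water (0.07, 0.01, 0.12 and 0.04). None passed the test with values as deposited. After centring on transcript length, Mrps22 and Mrps2 were called higher at 3 h (log2 fold changes 0.17 and 0.17, adjusted p = 0.00649 and 0.00871). Mrpl47 and Mrpl45 were not called there. Mrpl24 was lower than water at 3 h (log2 fold change -0.15, adjusted p = 0.0186). At 18 h against water, Mrps22, Mrpl47, Mrpl50, Mrpl32, Mrpl18 and Mrps9 were lower by the test (adjusted p = 0.0440, 0.0451, 0.0163, 0.00394, 0.00888 and 0.00227). Mrps2, Mrpl45 and Mrpl24 were not (adjusted p = 0.367, 0.0788 and 0.684). After centring on transcript length, Mrps22 lost its call at 18 h against water (log2 fold change -0.07, adjusted p = 0.187). Mrpl47, Mrpl50, Mrpl32, Mrpl18 and Mrps9 kept theirs.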

How the results depend on the processing

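The median log2 fold change of the 76 mitochondrial ribosomal protein genes stayed below 0 for both EGF times against water and above 0 between the lines under the alternatives tried. Counts moved, as did those of all genes, and the cause was not tested. Between the times, the 17 lower after centring were 22.4%, where 20.5% of all genes in that fit were lower. Over all genes, the share of calls that were higher was 37.5% at 3 h, but 53.5%, 75.4% and 61.6% with median-ratio, common-sum and protein-coding sum scaling. At 18 h it was 41.4%, but 53.4%, 62.8% and 59.7%. With a common sum it was 75% between the lines, against 51.8%, and 39.3% between the times, against 52.5%. At 3 h, genes lower numbered 18 after median-ratio rescaling, 1 with a common FPKM sum, 14 with a common protein-coding sum, 17 with only the 2 groups fitted and 12 after centring on length, and 4 to 39 with a library left out. Genes higher numbered 2, 1 and 3 under those scalings, 1 after quantile normalization, 1 with protein-coding genes only and 6 after centring. At 18 h, 2 were lower with a common sum and 8 to 34 with a library left out, and 1 was higher after median-ratio, protein-coding sum or quantile scaling and 5 after centring. For 18 h against 3 h, genes higher numbered 2 without a filter, 5, 0, 6 and 10 under median-ratio, common-sum, protein-coding sum and quantile scaling, 6 with protein-coding genes only, 0 with 2 groups fitted, 4 after centring and 0 to 6 with a library left out, and genes lower 5 with 2 groups fitted, 17 after centring and 2 to 9 with a library left out. For EGFR water against Neo water, genes higher numbered 7 with protein-coding genes only, 0 with 2 groups fitted, 1 with no variance trend and 0 to 5 with a library left out, and 1 gene was lower at FPKM of at least 5, with protein-coding genes only and under median-ratio, protein-coding sum and quantile scaling, and 2 after centring.

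Large minus small subunit median log2 fold changes were -0.0056 at 3 h, 0.017 at 18 h, 0.021 between the times and 0.0056 between the lines. At 3 h they were 0.0091 after centring and -0.0079 to 0.027 with a library left out. At 18 h they were 0.025 with subunits by known place, -0.0051 after quantile normalization, 0.024 after centring and 0.0017 to 0.025 with a library left out. Between the times they were 0.034 by known place, 0.027 after centring and 0.011 to 0.037 with a library left out, and between the lines -0.00234 by known place, 0.014 after quantile normalization, -0.0090 after centring and -0.031 to 0.0056 with a library left out. The sign turned in 3 of the 4 comparisons and stayed above 0 between the times.

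With the replicate number as a block, 26 genes were lower at 3 h, 29 at 18 h, 8 lower and 3 higher between the times, and 1 higher between the lines. Deviations of same-numbered libraries correlated at -0.17 to 0.31 across genes, highest for Neo water with EGF 18 h. With 1 difference per group, this cannot settle whether the numbers pair the samples, and the labels do not say. Of the values of named genes under an alternative, 1867 counted as the same, 411 lost the call, 14 gained one and 8 uncalled ones moved. The same means the same side of the threshold and the same direction. An uncalled value that turned direction also counted as the same if it moved by less than its SE. Depth is unknown and each group has 2 libraries. With a library left out, its group's lone library is assumed to vary like the other groups.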
